A study of Bos taurus with 12 samples.

Results

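The genes described here encode the enzymes and regulators of sterol and fatty acid synthesis. They were chosen by symbol from a list of 32, of which 30 had a row among the 13930 gene symbols of the deposited count table, and all 30 had enough reads to be among the 10959 genes tested. STARD4 and FADS1 were not analysed here. The list holds 2 enzymes of acetyl-CoA supply, 18 enzymes that run from acetoacetyl-CoA to cholesterol, 3 regulators of the pathway in the table (SREBF1, SREBF2 and INSIG1), and the enzymes of fatty acid synthesis, desaturation, elongation and lipid assembly.

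RNA was sequenced from endometrial biopsies of grazing dairy cows (Bos taurus) taken in early diestrus, at day 4 of the cycle. The 12 libraries fall into 4 classes of circulating progesterone with 3 libraries each. Very low means a concentration under 0.25 ng/ml, and low one under 1.4, for which the labels write mg/dl instead of ng/ml. High means over 2.5 ng/ml, and very high over 20 ng/ml. Sample titles carry the codes ANE for the very low and SO for the very high class, without an explanation in the labels, so how these concentrations arose is not given. Nothing in the labels says that the replicates of a class are separate cows. The p-values therefore reflect only variation among these libraries, which may not be variation among cows. Biopsies are mixed tissue, and in such samples fewer cells of a type and less RNA per cell cannot be told apart.

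Sterol and fatty acid synthesis both start from cytosolic acetyl-CoA. In ruminants much of it is made from acetate. The sterol branch passes through mevalonate, squalene and lanosterol to cholesterol, the precursor of steroid hormones, and the fatty acid branch begins with malonyl-CoA. Transcription of most of these genes is driven by the SREBP factors, which INSIG proteins hold in the endoplasmic reticulum while sterols are plentiful. In the endometrium, the products serve membranes, lipid stores and prostaglandin precursors.

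Depth ran from 3772564 to 8379489 counts per library. Levels are given in CPM, counts scaled to the TMM-adjusted library size (the usual CPM of edgeR), and they are compared for a gene between libraries, not between genes. Markers of endometrial stroma and epithelium were found in the libraries. Smooth muscle markers, 13 of 14 listed in the table, summed to 859 to 93300 CPM in the very low class, 752 to 2170 in the low class, 15700 to 39100 in the high class and 15900 to 30400 in the very high class. Epithelial markers, 11 of 12, summed to 229 to 6290, 1860 to 2980, 1330 to 1860 and 1250 to 1420 CPM in the same order. Very low replicate 1 stood apart, with the highest muscle and the lowest epithelial sum of all 12 libraries, and its rank correlations across genes with the other 2 libraries of its class were 0.738 and 0.877 (genes are not independent replicates). Very low replicate 2 also stood apart, at rank correlations of 0.738 and 0.846 with the others of its class, the lowest total count of all, 3772564, the highest epithelial and neutrophil scores (mean log2 CPM of 8.88 and 8.76) and the lowest stromal score (8.28). For genes past the threshold, fits without either library are described below.

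The progesterone classes separated few of these genes. Between the very high and the very low class, 1 of 30 members passed an edgeR adjusted p of 0.05, ACACA, which was 6.89-fold higher. Of all tested genes, 1.11% were called higher and 0.411% lower in that comparison. Along the 4 ordered classes, 3 members rose (ACACA, FDFT1 and LPIN1) and 1 fell (ACAT2), where 3.02% of all tested genes rose and 4.46% fell. The other 26 members did not pass either test. Without very low replicate 1, 2 members passed between very high and very low (ACACA and FDFT1) and 3 along the classes (ACACA, FDFT1 and LPIN1). Without very low replicate 2, 0 passed between very high and very low and 1 along the classes (ACACA). The share of all genes called in these refits is not given here, so their counts are not read as results about the members. The median slope of the 30 members was 0.06 log2 CPM per class, beside -0.04 over all tested genes, and the median log2 fold change of very high over very low was 0.07, beside -0.12.

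**Figure D1:**
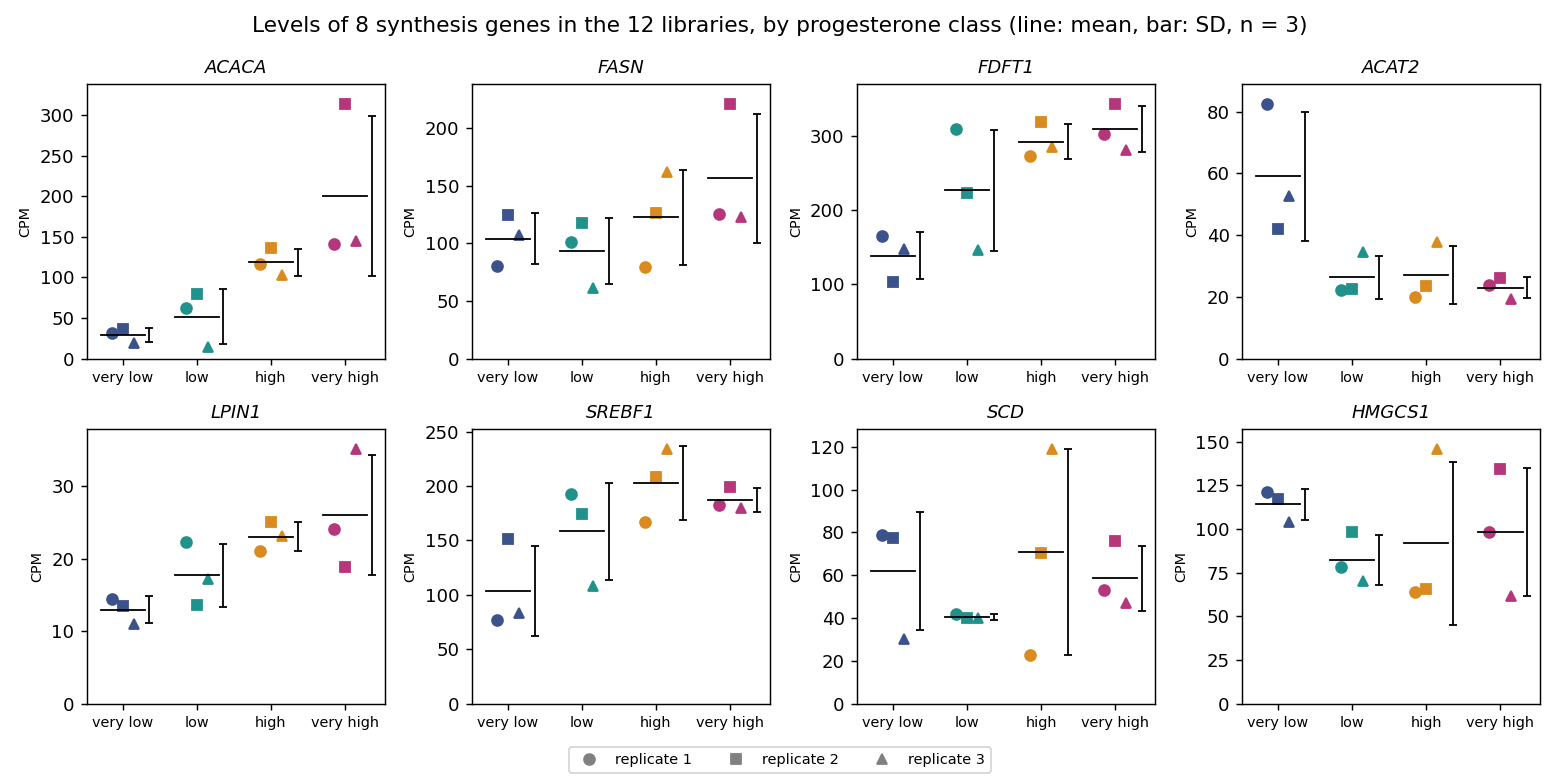
Levels of 8 genes in CPM (vertical axes, each from 0) in the 12 libraries by progesterone class, with each class mean as a line and its SD as a bar (circle, square and triangle: replicates 1, 2 and 3). The 3 very high libraries of ACACA lie at 141.5 to 314 CPM, above every low and very low library, while the very low libraries of ACAT2, at 42.1 to 82.5 CPM, lie above all others.

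ACACA encodes acetyl-CoA carboxylase alpha, which makes malonyl-CoA, the committed step of fatty acid synthesis. Its level was 31.8, 36.1 and 19.5 CPM in the very low class and 61.9, 79.1 and 13.6 CPM in the low class. It was 116.2, 136.3 and 103.3 CPM in the high class and 141.5, 314.1 and 145.6 CPM in the very high class. Every high library was above every low and very low library, and every very high library was above every high one, while low and very low overlapped. Class means were 29.2 ± 8.63, 51.5 ± 34.0, 118.6 ± 16.7 and 200.4 ± 98.5 CPM (SD, n = 3 libraries each).

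The difference of ACACA between very high and very low was 2.79 on the log2 scale (SE 0.57, edgeR adjusted p = 0.0426). The slope was 0.96 log2 CPM per class (SE 0.16, edgeR adjusted p = 0.0208). Without very low replicate 1, the difference was 2.85 (edgeR adjusted p = 0.0445) and the slope 0.98 (edgeR adjusted p = 0.0122). Without very low replicate 2, they were 3.02 (edgeR adjusted p = 0.0675) and 1.02 (edgeR adjusted p = 0.0485). The pairwise call was lost when any of 9 libraries was left out (very low 2 or 3, low 1, any high, any very high), with log2 differences of 2.34 to 3.04 and a largest adjusted p of 0.133 over the 12 fits. The slope stayed past the threshold in 10 of 12 such fits, and was 0.0537 and 0.0526 in adjusted p without very high replicate 2 and without very high replicate 3.

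The smooth muscle score was higher in every high and very high library (9.42 to 10.71) than in the low ones (5.04 to 6.27), as ACACA was. In the very low class that score was 11.77, 5.01 and 6.44, with ACACA at 31.8, 36.1 and 19.5 CPM. The 11.77 of very low replicate 1 was the highest muscle score of all 12 libraries. With that score as a covariate, the ACACA difference was 2.84 (edgeR adjusted p = 0.0215) and the slope 0.95 (edgeR adjusted p = 0.0175). Apart from very low replicate 1, the very low and low libraries scored 5.01 to 6.44, below all others. This adjustment therefore rests largely on that library and cannot separate muscle content from class, here or for the genes below. No fit with the score left that library out. With an epithelial score added as well, the ACACA difference was 2.43 (edgeR adjusted p = 0.325) and the slope 0.85 (edgeR adjusted p = 0.0635). The part of tissue makeup in the ACACA result was therefore not tested. Adipocyte markers, 6 of 8 in the table, summed to 15.2 to 97.4 CPM in the very low, 19.8 to 37.6 in the low, 29.6 to 56.2 in the high and 23.7 to 73.5 in the very high class, and LEP was at 0 in every library. The gene table places C19H17orf78 over ACACA, and it had 0 to 6 counts per library.

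FASN encodes fatty acid synthase, which builds palmitate from the malonyl-CoA that ACACA supplies. Its level was 80.1, 124.4 and 107.5 CPM in the very low class and 101.1, 117.3 and 61.5 CPM in the low class. It was 79.7, 126 and 161.6 CPM in the high class and 124.9, 220.7 and 123.1 CPM in the very high class. The very high libraries lay above all low libraries but overlapped the very low ones. Neither the difference of very high over very low (0.59, SE 0.34, edgeR adjusted p = 0.323) nor the slope (0.21, SE 0.10, edgeR adjusted p = 0.197) passed. SCD, the desaturase that makes oleate, ranged from 22.9 to 118.9 CPM with both ends in the high class, and its slope was 0.05 (SE 0.16, edgeR adjusted p = 0.877).

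Acetyl-CoA for both branches comes from ACLY, which cleaves citrate, and ACSS2, which activates acetate. Neither passed a test. ACLY was 122.7, 109.7 and 99.7 CPM in the very low, 98.5, 102.7 and 73.8 in the low, 97.1, 104.2 and 93.7 in the high and 112.6, 145.7 and 83.6 CPM in the very high class. All 4 classes of ACLY overlap, and its log2 difference of very high over very low was 0.04 (SE 0.22, edgeR adjusted p = 0.924). ACSS2 varied far more within a class, from 18.2 to 124.2 CPM in the very low class alone, and its difference was 0.62 (SE 0.71, edgeR adjusted p = 0.621).

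LPIN1 encodes lipin 1, a phosphatidate phosphatase that makes the diacylglycerol used for triglyceride and phospholipid. It was 14.5, 13.4 and 10.9 CPM in the very low class, 22.3, 13.6 and 17.2 in the low class, 21.1, 25.0 and 23.1 in the high class and 24.1, 18.8 and 35.1 CPM in the very high class. All high and very high libraries were above all very low libraries. Its slope was 0.34 log2 CPM per class (SE 0.08, edgeR adjusted p = 0.0372), and its difference of very high over very low was 1.01 (SE 0.28, edgeR adjusted p = 0.0778). With the muscle score as covariate, the adjusted p of the slope was 0.0536.

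Of the elongases and the polyunsaturated desaturase, none passed. ELOVL5, which lengthens polyunsaturated chains, was 103.9, 186.6 and 81.0 CPM in the very low, 65.2, 81.4 and 81.3 in the low, 88.8, 84.8 and 92.2 in the high and 75.1, 80.0 and 161.2 CPM in the very high class. Single libraries of the very low and very high classes were its highest values. Its slope was -0.05 (SE 0.11, edgeR adjusted p = 0.79). ELOVL6, which lengthens palmitate, had a slope of 0.06 (SE 0.09), and FADS2, a desaturase of polyunsaturated chains, of -0.16 (SE 0.12). The gene table places FADS1 over FADS2, and the part of FADS1 in the FADS2 count was not tested. FADS2 was the 1 member whose class mean was lower at each step from very low to very high, as were those of 14.4% of all tested genes. Class means were higher at each step for 7 members (PMVK, FDPS, FDFT1, MSMO1, INSIG1, ACACA and LPIN1) and for 9.59% of all tested genes.

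**Figure D2:**
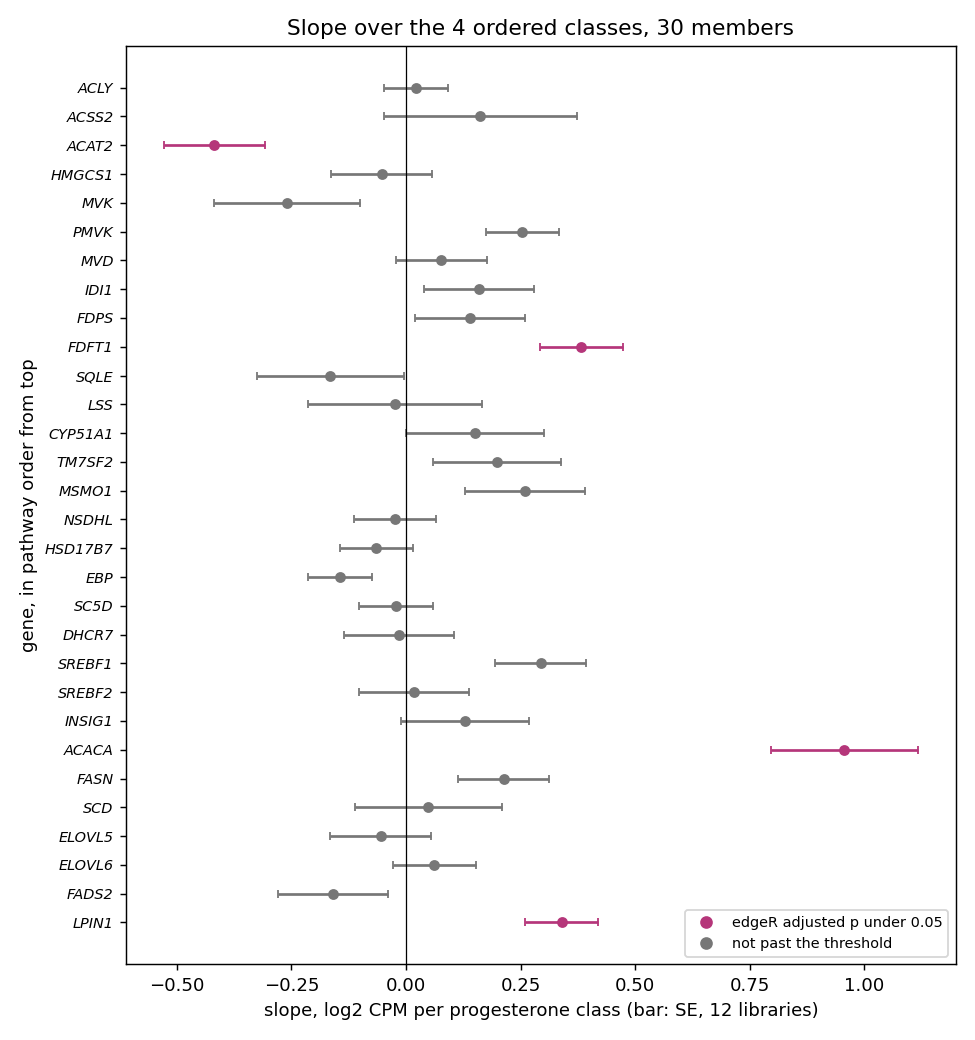
Slope of each of the 30 members in log2 CPM per progesterone class (horizontal axis, bar: SE) over the 12 libraries, with genes in pathway order. Slopes of ACACA at 0.96, FDFT1 at 0.38, LPIN1 at 0.34 and ACAT2 at -0.42 passed the edgeR threshold, and the others did not.

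The first enzyme of the sterol branch and the enzyme that commits it to squalene went in opposite directions. ACAT2 encodes the cytosolic thiolase that joins acetyl-CoA units into acetoacetyl-CoA. It was 82.5, 42.1 and 52.7 CPM in the very low class, 22.1, 22.5 and 34.4 in the low class, 20.0, 23.6 and 37.7 in the high class and 23.7, 26.1 and 19.3 CPM in the very high class. Every very low library exceeded all 9 others, and the other 3 classes overlapped. Its slope was -0.42 log2 CPM per class (SE 0.11, edgeR adjusted p = 0.0425), and its difference of very high over very low was -1.36 (SE 0.33, edgeR adjusted p = 0.0584).

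The slope of ACAT2 was -0.30 (edgeR adjusted p = 0.0674) without very low replicate 1 and -0.43 (edgeR adjusted p = 0.0779) without very low replicate 2, and it stayed past the threshold in 2 of 12 fits with a library left out, those without low replicate 1 or low replicate 2. With the muscle score as covariate it was -0.55 (edgeR adjusted p = 0.00993), and with the epithelial score added -0.54 (edgeR adjusted p = 0.0369). ACAT2 overlaps TCP1, a chaperonin subunit gene, and the strand setting of the counting is not given in the sources used here, so reads of the pair could not be separated. TCP1 was 356, 152.6 and 215 CPM in the very low class and 122.7 to 211 CPM in the others. Its slope was -0.18 (edgeR adjusted p = 0.225), and its part in the ACAT2 count was not tested.

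FDFT1 encodes squalene synthase, which takes farnesyl pyrophosphate into the sterol branch. It was 164.9, 103.8 and 147.5 CPM in the very low class and 309.4, 223.8 and 147 CPM in the low class. It was 273.2, 318.9 and 284.9 CPM in the high class and 302.9, 343.4 and 281.8 CPM in the very high class. All 6 high and very high libraries lay above the very low ones, and the low class spanned the gap. The slope of FDFT1 was 0.38 (SE 0.09, edgeR adjusted p = 0.0348), and its difference of very high over very low was 1.16 (SE 0.27, edgeR adjusted p = 0.0578), or 1.28 (edgeR adjusted p = 0.0423) without very low replicate 1.

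The slopes of FDFT1 and LPIN1 each stayed past the threshold in 4 of 12 fits with a library left out. For both genes the call was lost without very low replicate 2 or 3, any high library or any very high library, and the slopes ran from 0.33 to 0.44 for FDFT1 and from 0.30 to 0.41 for LPIN1. With both scores as covariates, the slopes were 0.44 for FDFT1 (edgeR adjusted p = 0.0688) and 0.35 for LPIN1 (edgeR adjusted p = 0.0992).

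Between these enzymes, the estimates for the mevalonate steps differed in sign, with SEs of 0.27 to 0.48. Their log2 differences of very high over very low were -0.22 for HMGCS1, which makes HMG-CoA, -0.98 for mevalonate kinase MVK, 0.82 for phosphomevalonate kinase PMVK, 0.20 for the decarboxylase MVD, 0.44 for the isomerase IDI1 and 0.44 for farnesyl pyrophosphate synthase FDPS. None of these 6 passed, so a difference in direction between them is not shown. PMVK came closest, with 8.62 ± 1.01 CPM in the very low, 11.9 ± 0.853 in the low, 12.7 ± 3.22 in the high and 15.2 ± 1.99 CPM in the very high one (SD, n = 3), with ranges of very high and very low that did not overlap and an edgeR adjusted p of 0.0685 for its slope. MVK was 169.1 CPM in very low replicate 1 and 32.2 to 106.1 CPM in the other 11 libraries.

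After squalene synthase, SQLE, the epoxidase, had a difference of -0.59 (SE 0.54) and the lanosterol synthase LSS of -0.29 (SE 0.63). Neither passed. Of the 8 enzymes from lanosterol to cholesterol, 0 passed any of the 8 tests, and their differences ran from -0.32 for the isomerase EBP to 0.93 for the sterol reductase TM7SF2. TM7SF2 was 76.4, 50.1 and 66.7 CPM in the very low, 148.5, 144.6 and 72.2 in the low, 78.8, 66.1 and 78.2 in the high and 115.4, 181.2 and 71.2 CPM in the very high class. Its levels did not follow the class order, since the high class lay within the range from 66.1 to 78.8 CPM and the low class mostly above it, and the joint edgeR test over the 4 classes gave an adjusted p of 0.276. The other 6 had differences of 0.53 for CYP51A1, 0.79 for MSMO1, -0.08 for NSDHL, -0.25 for HSD17B7, -0.12 for SC5D and -0.04 for DHCR7.

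Of the regulators, SREBF1, the gene of the SREBP that acts mainly on fatty acid synthesis, was 76.5, 151 and 83.1 CPM in the very low class and 192.5, 174.4 and 107.8 CPM in the low class. It was 166.5, 207.9 and 233.8 CPM in the high class and 182.6, 199.4 and 179.5 CPM in the very high class. Its 3 very low values lay below all high and very high ones. The slope of SREBF1 was 0.29 (SE 0.10, edgeR adjusted p = 0.0873), and the difference of very high over very low 0.86 (SE 0.29, edgeR adjusted p = 0.12), so it did not pass. The slope of SREBF2, the gene of the SREBP that acts mainly on sterol synthesis, was 0.02 (SE 0.12, edgeR adjusted p = 0.948), and that of INSIG1, the retention protein, was 0.13 (SE 0.14, edgeR adjusted p = 0.561). Each SREBF gene holds a microRNA gene, MIR33B and MIR33A, and both were at 0 in every library.

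In the other 5 pairs of classes and in the joint test of the 4 classes, 0 members passed with edgeR, as did 0.0% of all tested genes. At an unadjusted edgeR p under 0.05, the members counted 1 for high against low (10.3% of all tested genes), 0 for very high against high (0.794%), 1 for very high against low (11.9%), 5 for high against very low (18.8%), 4 for low against very low (11.6%) and 6 in the joint test (17.8%). The same unadjusted count was 7 for very high against very low (23.8%) and 6 for the slope (27.9%). Set against 30 members, none of these counts stands far above the share of all genes.

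Other tools drew the line elsewhere. DESeq2 called 6 members for very high against very low, namely ACACA, FDFT1, ACAT2, LPIN1, PMVK and SREBF1, where it called 13.8% of all genes. It called 6 for the slope (18.3%), 4 for high against very low (7.19%), 4 in the joint test (11.9%), 1 for very high against low (3.38%), 1 for low against very low (2.67%), 0 for high against low (2.2%) and 0 for very high against high (0.0%). With limma-voom, 2 members passed for the slope, ACACA and FDFT1 (3.28% of all genes), and 0 in any other test, where it called 0.00912% of all genes for very high against very low and 0.0% in the rest.

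Class ranges were also compared without a model. Between very high and very low, 5 members lay wholly higher (PMVK, FDFT1, SREBF1, ACACA and LPIN1; 13.4% of all tested genes did) and 1 wholly lower (ACAT2; 12.2%). Between high and very low, 5 lay wholly higher (FDFT1, MSMO1, SREBF1, ACACA and LPIN1; 10.7%) and 1 wholly lower (ACAT2; 9.63%). Between very high and low, 4 lay wholly higher (PMVK, ACACA, FASN and SCD; 11.8%) and 0 wholly lower (11.1%). The number of members with a positive log2 difference was 16 of 30 for very high against very low (42.4% of all tested genes). It was 17 for high against very low (41.2%), 12 for low against very low (44.8%) and 23 for high against low (48.1%). It was 19 for very high against high (47.7%) and 27 for very high against low (48.9%). These counts shifted when single libraries were left out. Very high against low, with a median of 0.29 over all libraries, had 15 of 30 positive (median 0.01) without very high replicate 2. Without low replicate 3 it had 22 of 30 (median 0.15). High against low had 14 of 30 (median -0.02) without high replicate 3 and 17 (median 0.05) without low replicate 3. Very high against high had 8 of 30 (median -0.16) without very high replicate 2. High against very low had 10 of 30 (median -0.18) without high replicate 3.

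Within a class, many members were high or low in the same library. Very high replicate 2 was the highest library of its class for 27 of 30 members, and for 17 of the 18 sterol enzymes, where it was highest for 27.9% of all tested genes. Very high replicate 3 was lowest for 23 members (35% of all genes), and low replicate 3 was lowest in its class for 23 (40.5%). In the high class, replicate 3 was highest for 19 members (37.2%) and replicate 1 lowest for 21 (34.7%), among them 16 of the 18 sterol enzymes. MSMO1, the methyl sterol oxidase, shows the pattern at 298.9, 505.3 and 139.6 CPM in the 3 very high libraries. These counts describe genes of shared libraries and were given no test.

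The median coefficient of variation of the members was 32.5% in the very high class and 25.6% in the high class, where the medians of all tested genes were 16.8% and 17.8%. It was 27.4% beside 27.1% in the low class and 31.3% beside 40.1% in the very low class. Relative to its class mean, the median member was 0.43 log2 CPM higher in very high replicate 2, 0.34 higher in high replicate 3, and at -0.34 and -0.37 in very high replicate 3 and low replicate 3.

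**Figure D3:**
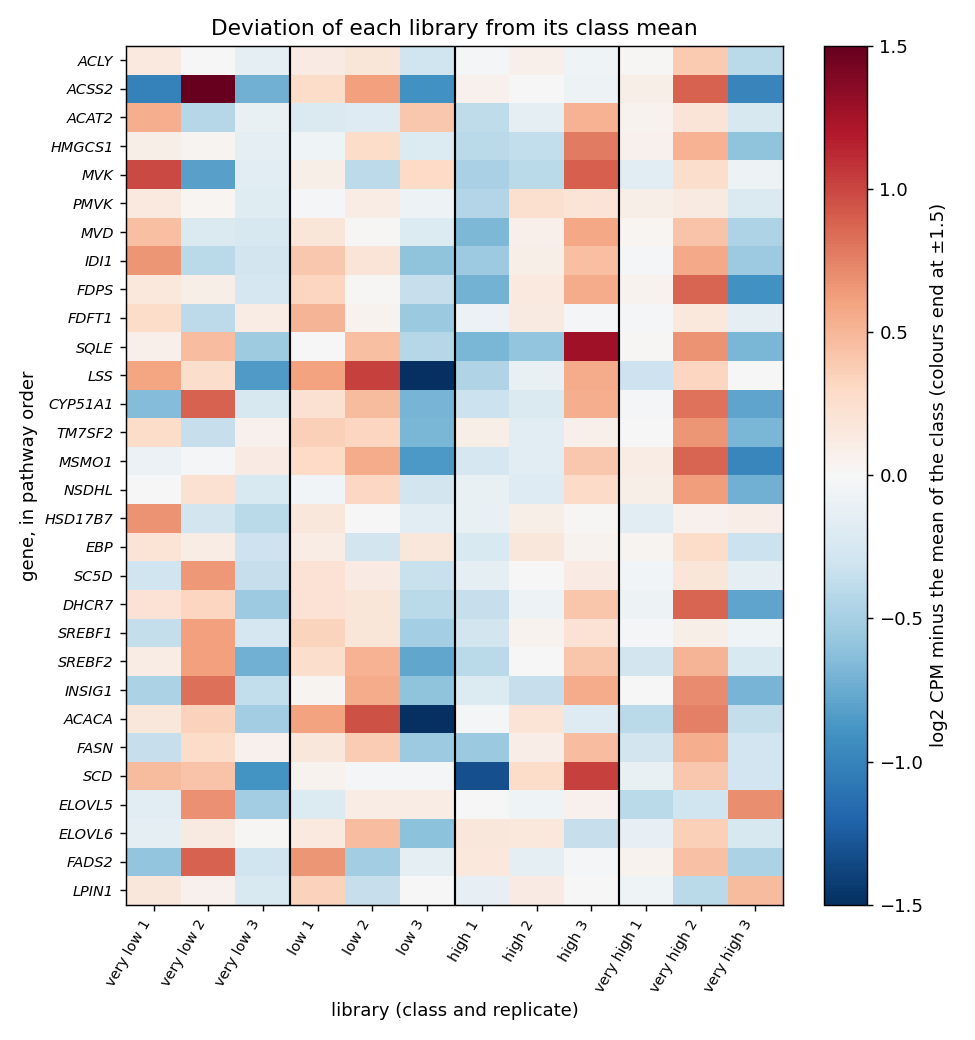
Deviation of each library from its class mean in log2 CPM (colour, ending at ±1.5) for the 30 members in pathway order (rows) and the 12 libraries (columns). The column of very high replicate 2 is above its class mean for most genes (median 0.43) and that of low replicate 3 below (median -0.37).

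Over the 57 tested genes listed for the surrounding pathways, very high replicate 2 was highest for 22 (27.9% of all tested genes), beside 27 of 30 members. Very high replicate 3 was lowest for 30 of the 57 (35% of all genes) and low replicate 3 for 27 (40.5%). In the high class, replicate 3 was highest for 19 of the 57 (37.2%) and replicate 1 lowest for 15 (34.7%).

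To compare enzymes within each library, 22 log2 ratios of neighbours in the pathway were tested along the class order with an exact two-sided permutation test of the slope over 369600 arrangements of the 12 libraries. These pairs were chosen after the values were seen, p-values were adjusted over the 22, and the sign of a ratio is no comparison of levels, since counts also depend on length. Both ratios that passed hold ACACA. The log2 ratio of ACACA to FASN was -1.86 ± 0.57 in the very low, -1.15 ± 0.89 in the low, 0.00 ± 0.60 in the high and 0.31 ± 0.17 in the very high libraries (SD, n = 3), with a slope of 0.77 per class (exact permutation p = 0.000763, adjusted p = 0.00839). That of ACLY to ACACA had class means of 1.96, 1.16, -0.26 and -0.75, with a slope of -0.96 (exact permutation p = 0.000189, adjusted p = 0.00417).

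Both ratios stayed past the threshold with each library left out in turn. They are not evidence apart from the ACACA slope, since ACACA had a slope of 0.96 and ACLY one of 0.02. In the sterol branch, FDFT1 to SQLE had a slope of 0.60 and ACAT2 to HMGCS1 of -0.31, each at an adjusted exact permutation p of 0.0632, and FDPS to FDFT1 had one of -0.31 at an adjusted p of 0.11, so none of these passed.

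**Figure D4:**
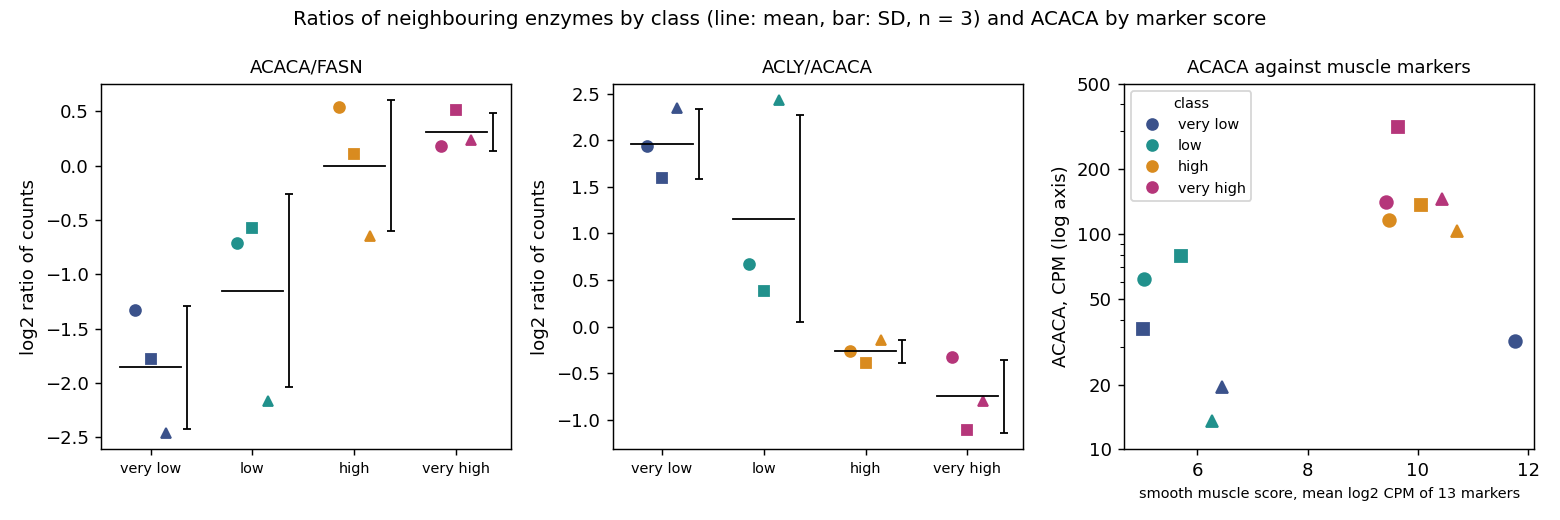
Log2 ratios of counts of ACACA to FASN (left) and ACLY to ACACA (middle) in each library by class (circle, square and triangle: replicates 1, 2 and 3), with class mean and SD, and ACACA in CPM (right, log axis) against the smooth muscle score, the mean log2 CPM of 13 markers. Very high libraries lie above all low and very low ones in the first ratio. In the right panel the 6 libraries of the high and very high classes have muscle scores of 9.42 to 10.71 and ACACA levels of 103.3 to 314.1 CPM. Very low replicate 1 has the highest muscle score, 11.77, with ACACA at 31.8 CPM.

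Of 69 other genes listed for the surrounding pathways, 60 were in the table and 57 were tested. Between very high and very low, 1 was called higher (1.11% of all tested genes) and 1 lower (0.411%). Along the classes 2 rose (3.02% of all tested genes) and 3 fell (4.46%). Set against 57 genes, the counts along the classes lie near those shares. Their median slope was -0.01, beside -0.04 over all tested genes. The 3 that fell were HACD4, NPC2 and ACSL5, which belong to elongation, lysosomal cholesterol export and acyl activation, and HACD3, also of elongation, was among those that rose. None of the 4 tested genes listed as other sterol synthesis passed with edgeR.

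HACD3 and HACD4 encode dehydratases of the elongation cycle, and they moved in opposite directions. HACD3 was 71.2, 75.9 and 85.8 CPM in the very low, 70.6, 80.7 and 74.1 in the low, 134.8, 114.3 and 109.3 in the high and 150.6, 131.9 and 115.8 CPM in the very high class. Its high and very high libraries all lay above its low and very low ones (slope 0.30, edgeR adjusted p = 0.0228; very high over very low 0.77, SE 0.16, edgeR adjusted p = 0.0475). HACD4 was 18.9, 42.1 and 35.0 CPM in the very low, 18.9, 16.5 and 46.0 in the low, 6.84, 5.74 and 9.0 in the high and 7.44, 3.99 and 5.81 CPM in the very high class. Its high and very high libraries all lay below the others (slope -0.94, edgeR adjusted p = 0.0216; very high over very low -2.47, SE 0.47, edgeR adjusted p = 0.0374).

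NPC2, the lysosomal protein that hands cholesterol to its exporter, was 311.6, 806.7 and 437.8 CPM in the very low, 410.4, 326.4 and 487.9 in the low, 241.4, 217.8 and 269.1 in the high and 223.2, 210.9 and 190.9 CPM in the very high class. Every high and very high library was below every other one. The slope of NPC2 was -0.47 (edgeR adjusted p = 0.0246), and -0.34 (edgeR adjusted p = 0.0649) without very low replicate 2. ACSL5, which activates long-chain fatty acids, was 66.3, 357.5 and 111.4 CPM in the very low, 94.4, 125.4 and 135.3 in the low, 57.2, 30.2 and 49.4 in the high and 72.5, 40.6 and 28.2 CPM in the very high class, with a slope of -0.70 (edgeR adjusted p = 0.0372; -0.85 to -0.45 with a library left out, the last without very low 2) and -0.37 (edgeR adjusted p = 0.0917) with the muscle score as covariate. Its very low class overlapped the very high one. Macrophage and dendritic markers, 9 of 10 in the table, of which AIF1, C1QA, C1QB and C1QC were at 0 in every library, also had lower sums in the high (59.3 to 104 CPM) and very high (42.6 to 88.4) than in the low (142 to 510) and very low (229 to 559) classes. Neutrophil markers, 6 of 7 in the table, summed to 212 to 19100 CPM in the very low, 3470 to 5280 in the low, 399 to 1750 in the high and 216 to 289 in the very high class, with 19100 in very low replicate 2, where NPC2 and ACSL5 were also highest. T and NK markers, all 10 in the table, summed to 189 to 427, 153 to 434, 73.1 to 202 and 62.9 to 119 CPM, and proliferation markers, 4 of 6, to 26 to 127, 152 to 295, 140 to 364 and 117 to 150 CPM in that order. Along the classes, 4 of 5 tested macrophage and dendritic, 2 of 6 neutrophil and 2 of 10 T and NK markers fell with edgeR. So did 2 of 4 proliferation and 2 of 11 epithelial markers, beside 4.46% of all tested genes. Summed proliferation markers nonetheless had their lowest median in the very low class, 49.6 CPM. The part of these cell types in the fall of HACD4, NPC2 and ACSL5 was not tested.

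With a library left out, the slopes stayed past the threshold in 10 of 12 fits for HACD4 (lost without very high 2 or 3), 9 for HACD3 (without any very high), 8 for NPC2 (without very low 2 or any very high) and 6 for ACSL5 (without very low 2, any high, or very high 2 or 3). The pairwise calls of very high over very low were kept in 5 of 12 fits for HACD4 (lost without very low 2, any high or any very high) and in 2 for HACD3, those without very low 3 or low 3. With both covariates the slopes of these 4 genes missed the threshold, at edgeR adjusted p of 0.0567 to 0.129.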

How the data were processed

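The authors deposited raw counts, whole numbers of reads per gene symbol, in 1 column per sample. Per the labels, RNA was extracted with Trizol, treated with DNase and captured with oligo-dT, and stranded TruSeq libraries were sequenced as paired reads in 1 pool of 12, so no sequencing batch separates them. FastQC 0.11.2 and Trimmomatic 0.32 stand in the submitters' processing notes. The sources used here name no aligner, counter, strand setting or annotation. Overlaps were read from the RefSeq gene table of assembly ARS-UCD2.0, another build than the notes name, so no coordinates or sequences are given.

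Counts were tested with edgeR 4.0.16 in R 4.3.3 (filterByExpr, count minimum 10, TMM, quasi-likelihood test). Pairs and the joint test came from 1 fit of the 4 class means to all 12 libraries, with 8 residual degrees of freedom (biological coefficient of variation 44.0%), and slopes from a separate fit on class rank with 10, with Benjamini-Hochberg adjustment over 10959 genes and a threshold of 0.05. Tests were 6 pairwise contrasts, a joint test, and a slope on class rank 1 to 4. DESeq2 1.42.0 and limma 3.58.1 (voom) were alternatives. Tests were checked on simulated counts. Marker scores are mean log2 (CPM + 0.5), and ratios used a pseudocount of 0.5 counts. Genes given in full passed a test or had the smallest joint p of a role group where none passed, and FASN was added after its values were seen. The members and lists were chosen with earlier results of these data known. A few genes of the surrounding pathways are not reported here.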

Additional observations from a re-analysis of the deposited data

How the results depend on the processing

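For very high against very low, where edgeR called 1 member, the count was 6 with DESeq2, 5 with the smooth muscle covariate, 0 with limma-voom, with both marker covariates, with the compared classes alone or with a replicate block, and 0 to 3 with a library left out. For the trend (4 members), it was 2 with limma-voom, 1 with both covariates, 1 with the block and 0 to 4 with a library left out. Where edgeR called 0, DESeq2 called 4 for high against very low, 1 for very high against low, 1 for low against very low and 4 in the joint test, the smooth muscle covariate gave 3 for high against very low and 1 in the joint test, and leaving out a library gave 0 to 1 for high against very low. The share of all genes called in the fits with covariates, a block or a library left out is not given here. The member counts of those fits are therefore not read as results about the members. Ratios past the threshold, 2 in all libraries, were 2 to 4 with a library left out, the 4 without low replicate 2, an alternative chosen after seeing the data. No gene that passed an edgeR test changed direction for that test in any alternative. For members that did not pass, some signs did change, as the shifting counts of positive differences show. The replicate numbers do not pair the samples: the deviations of same-numbered libraries correlated at -0.30 to 0.29, and 4 of 12 libraries correlated best with their own number. With 3 libraries a class and totals down to 3772564 counts, a member that did not pass is not shown to be the same in all classes. The causes of these changes were not tested.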
